A study of Mus musculus with 11 samples.

Results

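A list of 10 genes of the blood-brain barrier was followed through single-nucleus RNA counts of mouse brain: Cldn5, Flt1, Pecam1, Slc2a1, Mfsd2a, Slco1c1, Slco1a4, Ocln, Tjp1 and Slc7a5. Members were taken by symbol from the 25938 genes of the deposited count matrix, and all 10 were present and passed the low-count filter in vascular endothelium. The matrix holds 110304 nuclei from 11 libraries of posterior brain. In all groups both alleles of the transferrin receptor (TfR) are labelled as the human knock-in, dosing was intravenous, once a week for 4 weeks, and brains were collected 72 h after dosing ended. ATV:BACE1 (57 mg/kg by the sample labels, though the series' design text may be read as 60 mg/kg for every group, n = 3) binds the TfR and carries no oligonucleotide. OTV:Malat1 (60 mg/kg, n = 3) binds the TfR and carries an antisense oligonucleotide (ASO) against the nuclear RNA Malat1. The conjugate nonTV:Malat1 (60 mg/kg, n = 3) carries the ASO without TfR binding, and Malat1 ASO (2.5 mg/kg, n = 2) is the free oligonucleotide. Each group thus held an injected agent, and a group without one was not analysed here. Replicates 1 were female and 2.33 months old, replicates 4 male and 2.57 months old, and replicates 5 male and 2.33 months old.

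The endothelial cells of brain capillaries are sealed to each other by tight junctions and move little cargo in vesicles, so that nutrients cross through dedicated carriers. Brain endothelium is also rich in TfR, the route that TfR-binding biologics use to enter the brain. Claudin-5 (Cldn5) and occludin (Ocln) are membrane proteins of the tight junction, and ZO-1 (Tjp1) is the scaffold beneath them. The carriers are GLUT1 (Slc2a1) for glucose, LAT1 (Slc7a5) for large neutral amino acids, OATP1C1 (Slco1c1) for thyroxine, and OATP1A4 (Slco1a4) for organic anions. Mfsd2a carries lysophosphatidylcholine with docosahexaenoic acid and restrains transcytosis, while Flt1 (VEGF receptor 1) and Pecam1 (CD31) are general endothelial surface proteins. The question the comparisons addressed was whether repeated doses of a molecule that binds the TfR went with other levels of these genes in the endothelium.

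The genes lie on 8 chromosomes in mm10. Cldn5 is a single-exon gene of 1416 bases (chromosome 16, 18776847 to 18778262, plus strand), whereas the spans of the other members are 84.3% (Mfsd2a) to 96.6% (Tjp1) intronic. Slco1c1 (141524368 to 141570177, plus strand) and Slco1a4 (141805440 to 141856199, minus strand) both lie on chromosome 6, and Slc2a1 and Mfsd2a both lie on chromosome 4. RefSeq promoters (GRCm38.p6) matched 8 of the 10 members. The 250 bases before the transcription start are printed for 3 of them, since these stand for 3 patterns described below: Slco1a4, whose RNA was at or under 3.50% of its endothelial level outside the vessel classes, Tjp1, whose RNA was present in every class, and Mfsd2a, whose dosing differences were large among the members. Capitals mark a 6-letter motif where the window holds one, and each sequence is read 5′ to 3′ on the gene's own strand.
Slco1a4: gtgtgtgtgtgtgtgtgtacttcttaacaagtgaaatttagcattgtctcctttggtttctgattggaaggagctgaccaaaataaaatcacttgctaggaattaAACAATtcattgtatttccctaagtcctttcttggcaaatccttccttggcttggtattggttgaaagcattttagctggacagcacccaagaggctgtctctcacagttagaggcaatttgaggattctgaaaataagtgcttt
Tjp1: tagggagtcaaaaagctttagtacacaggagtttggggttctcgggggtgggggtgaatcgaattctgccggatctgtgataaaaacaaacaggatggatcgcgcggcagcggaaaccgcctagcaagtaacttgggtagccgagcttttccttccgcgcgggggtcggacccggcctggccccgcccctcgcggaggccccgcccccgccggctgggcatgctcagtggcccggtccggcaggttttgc
Mfsd2a: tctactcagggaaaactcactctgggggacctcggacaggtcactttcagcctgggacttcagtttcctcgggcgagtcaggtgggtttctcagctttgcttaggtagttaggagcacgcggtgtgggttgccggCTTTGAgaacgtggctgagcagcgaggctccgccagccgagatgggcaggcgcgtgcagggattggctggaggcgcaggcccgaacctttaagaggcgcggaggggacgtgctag

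The Slco1a4 window (chr6:141856221-141856470, minus strand) is 39.2% GC and that of Slco1c1 42.8%, against a median of 52.4% over 32851 RefSeq promoters. The Tjp1 window (chr7:65371245-65371494, minus strand) is 63.2% GC and lies within the annotated span of the gene, upstream of its RefSeq start. The Mfsd2a window (chr4:122961189-122961438, minus strand) is 61.6% GC and directly adjoins the annotated gene (122946850 to 122961188). The motifs searched on both strands were CAGGAA of the ETS factors, CTTTGA of the TCF/LEF factors of Wnt signalling and ATTGTT of the SOX factors, none of which overlapped another in these windows. Among 9 windows of the 8 matched members, ATTGTT was found in that of Slco1a4 (as its reverse complement), CTTTGA in that of Mfsd2a, and CAGGAA in 0. These letters occurred in 9.42%, 13.8% and 25.7% of all promoters. The matches describe letters in these windows only.

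Vascular endothelium, a class name predicted by the authors for each nucleus, comprised 1106 nuclei (1.00% of all, 58 to 134 per library) with a median of 960.5 unique molecular identifiers (UMIs) per nucleus. Its 14 general endothelial markers were all detected, with summed levels of 8758 to 12212 CPM across libraries (CPM are the UMIs of a gene rescaled so that the class total of each library is equal). Pericyte markers summed to 1005 to 2261 CPM there, astrocyte markers to 370 to 1087 CPM, neuronal markers to 436 to 1063 CPM and choroid plexus markers to 1011 to 2002 CPM. The choroid plexus sum was nearly all Ttr (mean 1409 CPM), with Folr1 at 5.54, Kl at 3.93 and Clic6 at 2.39 CPM. Ttr was present in neurons as well (355 CPM). Macrophage markers summed to 0 to 65.9 CPM, with Cd163 and Lyve1 at 0. Library totals ran from 33235994 to 43972886 UMIs over all nuclei. Of the barcode sequences, 1495 occurred in 2 or more libraries, which involved 30 endothelial nuclei.

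All 10 barrier genes had their mean level in vascular endothelium above that in each other class. In mean CPM ± SD over 11 libraries, the tight-junction genes stood there at 2428 ± 388 for Cldn5, 358 ± 63.9 for Ocln and 1395 ± 237 for Tjp1. The carriers stood at 1267 ± 264 for Slc2a1, 737 ± 115 for Slc7a5, 1679 ± 317 for Slco1c1, 2933 ± 529 for Slco1a4 and 162 ± 38.4 for Mfsd2a. The surface proteins Flt1 and Pecam1 stood at 5579 ± 560 and 592 ± 100. Gene lengths differ, so these levels are not ranked against each other. Because classes were predicted from expression, class differences are given as a description without a test.

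**Figure D1:**
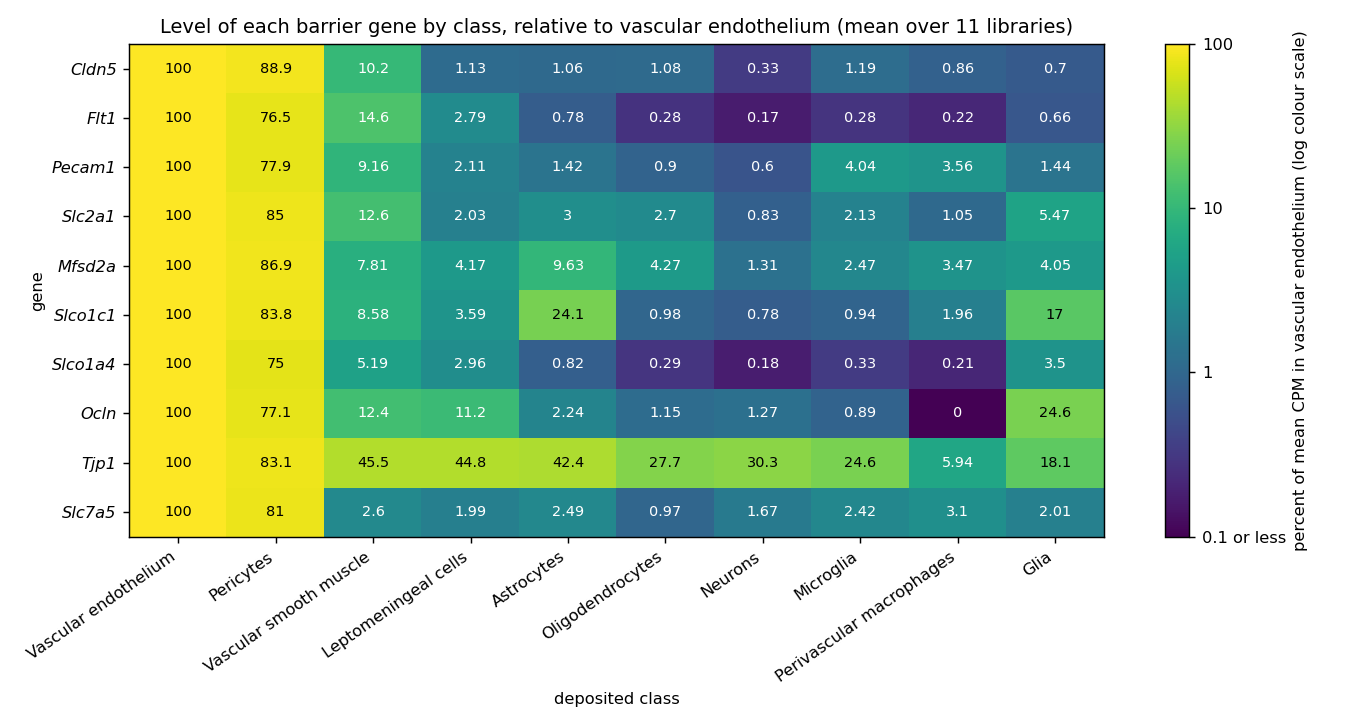
Mean CPM of each barrier gene (rows) in each of 10 deposited classes (columns) as a percent of its mean in vascular endothelium, over 11 libraries, with a log colour scale. The class named pericytes sits at 75.0% to 88.9% for all 10 genes, and Tjp1 is the gene with 18.1% or more in 9 of the 10 classes.

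Against each of 7 classes (the class named vascular smooth muscle, leptomeningeal cells, astrocytes, oligodendrocytes, neurons, microglia and the class named glia), 10 of 10 members were higher in endothelium in all 11 libraries. Between 8.28% (against the class named smooth muscle) and 14.8% (against glia) of all genes with at least 50 summed UMIs had that order. The class named smooth muscle (median class score 0.545) held RNA of both pericyte and muscle markers, so its name is kept only as a class name. Pericyte markers ran from Higd1b (117 CPM) to Atp13a5 (2875), with Vtn at 1499, Pdgfrb at 961 and Abcc9 at 752. Muscle markers ran from Cnn1 (9.12 CPM) to Acta2 (477), with Mylk at 390 and Myh11 at 257. In the class named pericytes Acta2 was 12.4 CPM and Myh11 22.8 CPM. In neurons 9 members lay at 0.169% (Flt1) to 1.67% (Slc7a5) of their endothelial mean. Tjp1 was the exception, at 423 CPM ± 33.2 in neurons (SD, n = 11), 30.3% of its endothelial mean. Its levels in the class named smooth muscle (634 CPM), leptomeningeal cells (625 CPM) and astrocytes (592 CPM) overlapped within 1 SD. ZO-1 also serves junctions of epithelia and glia, as background.

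Slco1c1 and Ocln had a second site outside vessels. Slco1c1 in astrocytes was 405 CPM ± 75.6 (SD, n = 11), with a lowest library of 320, a median of 369 and a highest of 548. This was 24.1% of the endothelial mean, and every astrocyte value lay below every endothelial value, which ran from 1109 to 2180 CPM. In the class named glia, where the choroid plexus genes Ttr (3515 CPM), Clic6 (267 CPM) and Kl (220 CPM) were high, Slco1c1 was 285 CPM ± 57.9. That was lower than in astrocytes in 11 of 11 libraries. Ocln in the same class was 88.1 CPM ± 17.4 (24.6% of endothelium) and in leptomeningeal cells 40.1 CPM ± 17.0 (11.2%). Ocln had 0 UMIs in the 125 perivascular macrophages. This class is small (5 to 21 nuclei per library), and members there ran up to 11 UMIs (Tjp1), with 1 each for Mfsd2a and Slco1a4. The 0 of Ocln is therefore too shallow to be read as absence. Mfsd2a reached 9.63% of its endothelial mean in astrocytes (15.6 CPM ± 5.55) and Slc2a1 5.47% in glia (69.3 CPM).

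The class named pericytes carried the barrier genes at nearly endothelial levels. Cldn5 there was 88.9% of its endothelial mean, Mfsd2a 86.9%, Slc2a1 85.0%, Slco1c1 83.8%, Tjp1 83.1%, Slc7a5 81.0%, Pecam1 77.9%, Ocln 77.1%, Flt1 76.5% and Slco1a4 75.0%. Flt1, Slco1c1, Slco1a4 and Ocln were higher in endothelium in all 11 libraries, 4 of 10 members where 1.42% of 9771 genes had that order. The mean ± 1 SD ranges of the 2 classes overlapped for every member except Flt1. The other 6 members were higher in endothelium in 7 (Mfsd2a) to 10 (Pecam1, Slc7a5) libraries. Pericyte markers separated the 2 classes to unequal degrees. Pdgfrb, the receptor that recruits pericytes to vessels, was 566 CPM in pericytes and 53.0 CPM in endothelium, and Vtn (vitronectin) was 2487 against 192 CPM, both lower in endothelium in 11 of 11 libraries. Rgs5, the most abundant of the 9 pericyte markers in endothelium, differed less, at 1674 CPM in pericytes and 1019 in endothelium (ratio 0.466 to 0.821 over libraries). The general endothelial marker Cdh5 was 228 against 270 CPM. The 14 endothelial markers, none of them a member, summed in this class to 6552 to 9132 CPM.

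Nuclei of the pericyte class differed in how many barrier genes were detected. Each nucleus was first thinned to 500 UMIs. Of 929 pericyte nuclei, 685 (73.7%) had UMIs of 3 or more members, 151 had 1 or 2 and 93 had none. At full depth the nuclei with 3 or more had a median of 2242 UMIs, a median class score of 0.965, and a Vtn UMI in 94.7% of nuclei. Those with none had a median of 671 UMIs, a median score of 0.440, and a Vtn UMI in 51.6%. Called doublets in the deposited metadata were 4.38% of nuclei with 3 or more members, 10.6% of those with 1 or 2 and 1.08% of those with none. Thinned to 1000 UMIs, which left out 20.2% of pericyte nuclei as too shallow, 97.3% ± 1.30 of the other 742 had 3 or more members and 0.817% had none (mean and SD over 11 libraries), beside 99.6% ± 0.808 of 525 endothelial nuclei with 3 or more. Unthinned, with all 930 pericyte nuclei kept, 84.3% ± 4.95 had 3 or more and 9.28% had none, so of these 3 readings the share with none was under 1% only where shallow nuclei were left out. Among 1105 endothelial nuclei, 1005 (91.0%) had 3 or more members and 2 had none, and a Vtn UMI was present in 13.4% of those with 3 or more. The part of joined endothelial and pericyte nuclei in these values was not tested.

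Detection per nucleus was also read gene by gene. After thinning to 500 UMIs, a Flt1 UMI was found in 90.3% ± 2.32 of endothelial nuclei (SD over 11 libraries), Slco1a4 in 70.6% ± 8.70, Cldn5 in 60.3% ± 9.38 and Slco1c1 in 54.4%. Tjp1 was found in 47.4%, Slc2a1 in 44.2%, Slc7a5 in 31.1%, Pecam1 in 24.3%, Ocln in 15.6% and Mfsd2a in 7.04%. These shares rise with the depth read: at 1000 UMIs, which left out 52.5% of endothelial nuclei, Pecam1 was found in 44.1%, Ocln in 31.1% and Mfsd2a in 13.9%. Unthinned, at a median of 960.5 UMIs, these ran from 16.5% for Mfsd2a to 96.7% for Flt1. Thinned neurons, the class used to read background, had 0.164% (Mfsd2a) to 0.613% (Slc7a5) for 9 members and 18.3% ± 1.11 for Tjp1, from a median depth of 3926 UMIs. Unthinned neuronal shares were 0.979% to 5.44% for those 9 and 74.9% for Tjp1. Astrocytes had Slco1c1 in 16.9% and Tjp1 in 23.8% of thinned nuclei. Every member had a higher share in astrocytes than in neurons, Slc2a1 (2.02%), Cldn5 (1.47%) and Ocln (0.314%) among them. That order thus does not single out Slco1c1 and Tjp1. Thinned nuclei of the class named pericytes had 5.07% (Mfsd2a) to 76.7% (Flt1), with Cldn5 at 56.2%. The pericyte share of every member lay below its endothelial share.

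**Figure D2:**
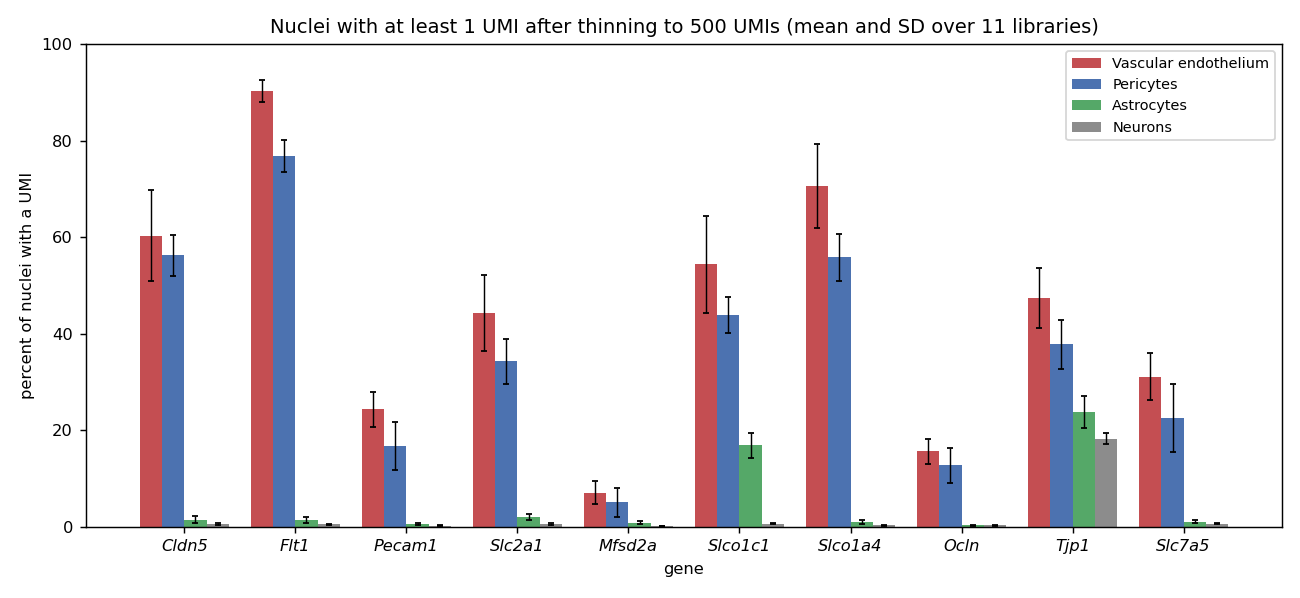
Percent of nuclei with at least 1 UMI of each barrier gene after thinning every nucleus to 500 UMIs, as mean (bar) and SD (line) over 11 libraries, in 4 deposited classes. Endothelium runs from 7.04% (Mfsd2a) to 90.3% (Flt1), and neurons exceed 0.613% for Tjp1 only, at 18.3%.

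Over the 10 classes the log2(mean CPM + 1) of the members was correlated to unequal degrees. Pearson r between 2 members ran from 0.588 (Pecam1 with Tjp1) to 0.969 (Cldn5 with Pecam1), with a median of 0.872 over 45 pairs. The 10 points share libraries and differ in depth. Among 4567 genes of at least 50 CPM in endothelium, those most like each member over the classes were found by the same measure. They were Ly6c1, Ly6a and Slc9a3r2 for Cldn5 (r 0.993 to 0.996), 1700018A04Rik, Zfp366 and Podxl for Flt1 (0.984 to 0.987), and Sox17, Acvrl1 and Kctd10 for Pecam1 (0.991 to 0.994). For the carriers they were Crip2, Icam2 and Cyb5r3 with Slc2a1 (0.975 to 0.981), Rgcc, Cav2 and Car5a with Mfsd2a (0.968 to 0.974), Rgs12, Myo10 and Eno1 with Slco1c1 (0.959 to 0.977), Fas, Bok and Tead4 with Slco1a4 (0.970 to 0.974), and Slc39a10, Spock2 and Smap1 with Slc7a5 (0.969 to 0.980). Ocln was most like Paqr5 (0.994), Flvcr2 and Nos3, and Tjp1 most like Ppa2 (0.961), Atg12 and Slc16a1.

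Whether TfR-binding doses went with other levels of the barrier genes was asked in vascular endothelium by setting the mean of ATV:BACE1 and OTV:Malat1 (6 libraries) against the mean of nonTV:Malat1 and Malat1 ASO (5 libraries). Of these groups only ATV:BACE1 carries no ASO, and only Malat1 ASO is no conjugate or antibody. TfR binding cannot be fully told apart from these traits in this comparison. Endothelial UMIs were summed per library and tested with edgeR's quasi-likelihood test, with Benjamini-Hochberg adjustment over all 4449 genes. 0 of 10 members passed an adjusted p of 0.05, where 0% of all genes did so. At an unadjusted p under 0.05 the count was 0 of 10 members and 142 of all genes (3.19%). DESeq2 called 0 members, where it called 0% of genes, and 0 members had an unadjusted DESeq2 p under 0.05. With the replicate number as a block edgeR also called 0 members and 0% of genes. Its unadjusted p was under 0.05 for 2 members (Cldn5 0.0218 and Mfsd2a 0.0408), where 181 of all genes (4.07%) had one. Their log2 differences with the block were -0.27 and -0.47 (adjusted p 0.992 for both), and the intervals printed from here on are those of the fit without it. The libraries of the 2 sides overlapped for all 10 members, and 0.27% of genes did not overlap. Read within each replicate number, which is a deposited batch, every TfR-binding library lay below every other library of its number for Cldn5 and Mfsd2a, 2 of 10 members, where 0.854% of genes had that order. 0 members were higher in this way (0.697% of genes), and this reading was chosen after the values were seen and has no test. The labels do not state that each library came from its own animal, so p-values measure the spread between libraries.

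Levels by library are given as TMM-normalised CPM, which is CPM over the tested genes with a scaling factor per library, always in the order of replicates 1, 4 and 5 (1 and 5 for Malat1 ASO). Cldn5 stood at 2643, 2981 and 3166 under ATV:BACE1, at 1992, 2950 and 2901 under OTV:Malat1, at 2752, 3362 and 3452 under nonTV:Malat1, and at 2801 and 3954 under Malat1 ASO. The 4 replicate 1 libraries were the lowest of their groups, and OTV:Malat1 replicate 1 was the lowest of all. The log2 difference of TfR-binding from other groups was -0.25 (95% interval -0.56 to 0.071, edgeR adjusted p 0.999). Ocln differed by -0.24 (-0.62 to 0.14) and Tjp1 by -0.12 (-0.45 to 0.21). Ocln ranged from 315 to 458 in the TfR-binding libraries and 403 to 592 in the others, and Tjp1 from 1317 to 1840 and 1275 to 2133.

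Of the carriers, Mfsd2a had the difference farthest from 0. Its TMM-normalised CPM were 173, 189 and 125 under ATV:BACE1, 149, 202 and 178 under OTV:Malat1, 275, 270 and 240 under nonTV:Malat1, and 195 and 192 under Malat1 ASO. The 3 nonTV:Malat1 libraries were above the 8 others, while Malat1 ASO lay within the range of OTV:Malat1. These values rest on 9 to 46 Mfsd2a UMIs per library. The log2 difference of TfR-binding from other groups was -0.43 (-0.87 to 0.012), with an unadjusted edgeR p of 0.0562 and an adjusted p of 0.999. This interval takes in a fold of 0.545 at its lower end and 1.01 at its upper end.

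Slc2a1 stood at 1239, 1386 and 1369 under ATV:BACE1, at 1922, 1212 and 1489 under OTV:Malat1, at 1442, 1706 and 1448 under nonTV:Malat1, and at 2217 and 1708 under Malat1 ASO. Each ATV:BACE1 library lay below those of nonTV:Malat1 and Malat1 ASO, while OTV:Malat1 spanned most of the range. The TfR-binding difference was -0.27 (-0.60 to 0.053). For Slco1a4 it was -0.015 (-0.34 to 0.30), for Slco1c1 0.13 (-0.21 to 0.47) and for Slc7a5 -0.066 (-0.40 to 0.27). Flt1, with 368 to 1147 UMIs per library, differed by 0.026 (-0.25 to 0.30), a fold of 1.02 with an interval of 0.840 to 1.23. Pecam1 differed by -0.17 (-0.52 to 0.19). Over the 10 members the ends of these intervals lay at folds of 0.545 and 1.39. Each interval is that of a single gene in the fit without the replicate block, not adjusted for the number of genes tested. Calls rested on adjusted p-values, so the intervals do not bound how large a difference can have gone undetected. The members' median log2 difference was -0.14, with 8 of 10 below 0, beside 0.0067 for all 4449 genes, of which 2173 were below 0. In OTV:Malat1 against nonTV:Malat1 the members' median was -0.026, with 6 of 10 below 0. Against Malat1 ASO it was -0.10, also with 6 of 10 below 0. Against ATV:BACE1 it was 0.13, with 8 of 10 above 0.

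**Figure D3:**
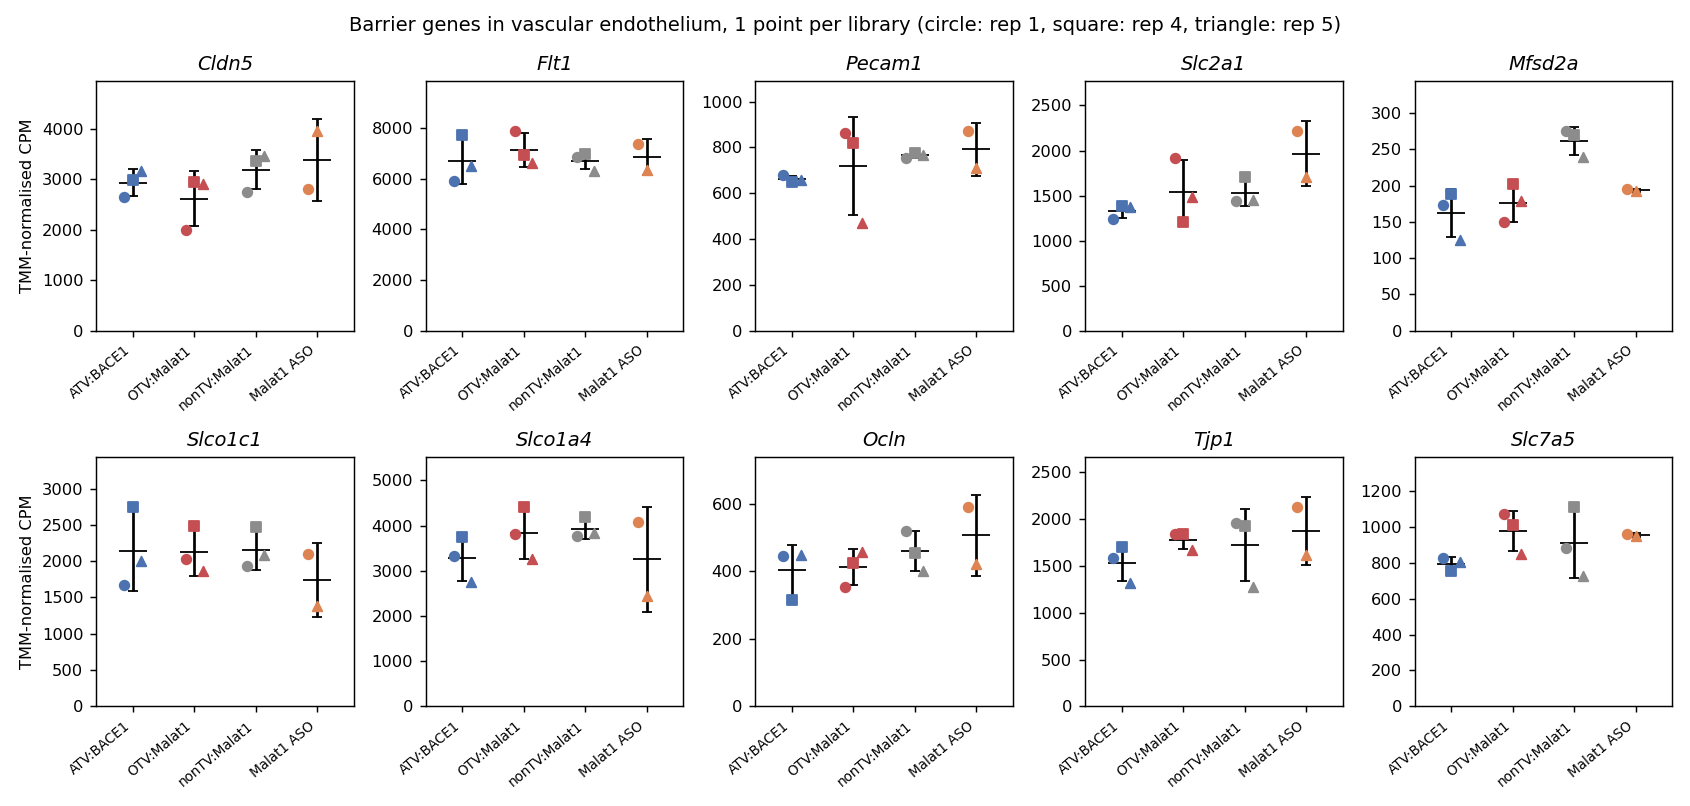
TMM-normalised CPM of each barrier gene in vascular endothelium, 1 point per library (circle, square and triangle for replicates 1, 4 and 5), with the group mean (horizontal line) and SD (vertical line), axes from 0. The 3 nonTV:Malat1 libraries of Mfsd2a (240 to 275) stand above the 8 others (125 to 202), and for Flt1 all groups overlap.

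**Figure D4:**
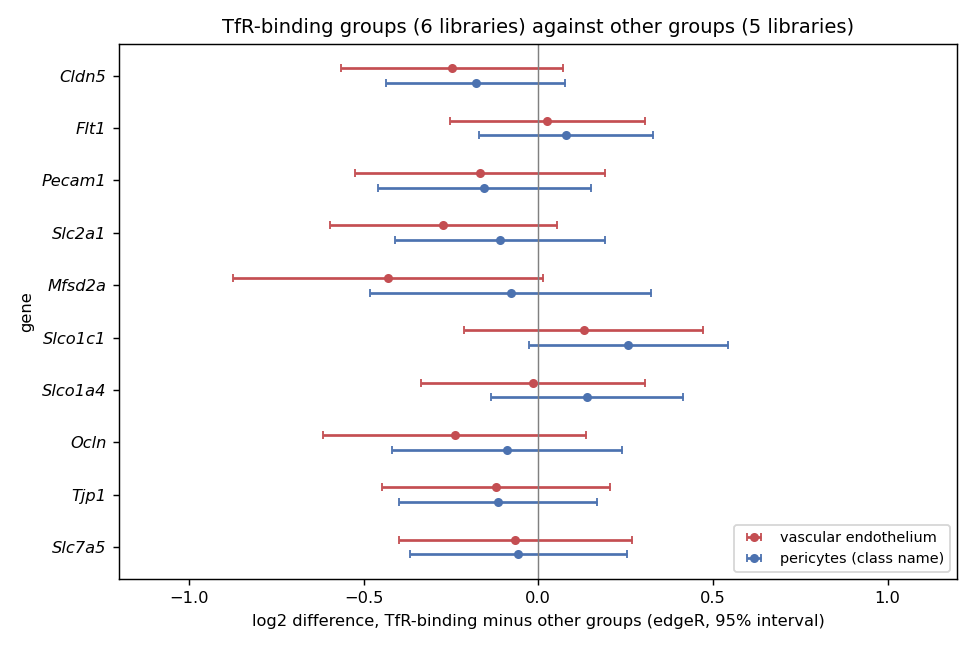
Log2 difference of the TfR-binding groups (6 libraries) from the other groups (5 libraries) for each barrier gene, with 95% intervals from edgeR, in vascular endothelium and in the class named pericytes. The fit has no batch term, all 20 intervals include 0, and Mfsd2a in endothelium is the point farthest from 0 at -0.43. With the replicate block, the unadjusted edgeR p was under 0.05 for Cldn5 and Mfsd2a in endothelium.

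Single groups were then compared in the same fit. These 5 comparisons share libraries, so they are given side by side and not as repeats of each other. OTV:Malat1 and ATV:BACE1 both bind the TfR. They differ in the oligonucleotide, in BACE1, which only the name of ATV:BACE1 holds, and by the labels slightly in dose. These cannot be told apart here. 0 of 10 members passed in edgeR, where 2 genes did (0.045%, Malat1 itself and Wdr17), and 0 members had an unadjusted p under 0.05, as 4.77% of genes did. DESeq2 also called 0 members, where it called 0.0225% of genes, and the replicate block 0, where it called 0.0674%. The member differences ran from -0.17 (Cldn5) to 0.30 (Slc7a5). Slc7a5 had 826, 756 and 805 TMM-normalised CPM under ATV:BACE1 and 1074, 1010 and 852 under OTV:Malat1. It was the 1 member whose libraries did not overlap, where 9.82% of genes did not, and its interval was -0.15 to 0.75. In the same endothelial fit Malat1 differed by -1.84 (edgeR adjusted p 2.83e-07), from 75055, 76500 and 85240 to 23247, 16861 and 26107 TMM-normalised CPM. The target of the conjugate was thus lower in the nuclei in which the barrier genes were read. Endothelial Malat1 in the ASO groups without TfR binding also lay under ATV:BACE1, at 43370 and 52318 TMM-normalised CPM under Malat1 ASO (-0.72, -1.13 to -0.32, edgeR adjusted p 0.325, with the replicate block 0.00109) and at 55075, 54292 and 65832 under nonTV:Malat1 (-0.43, -0.79 to -0.078, adjusted p 1.00, with the block 0.286).

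Against ATV:BACE1, nonTV:Malat1 had all 10 members above 0, with a median of 0.17 beside -0.0056 for all genes. 0 of 10 passed in edgeR, where 0% of genes did, and 0 in DESeq2, which also called 0% of genes. Mfsd2a had the 1 unadjusted p under 0.05 in edgeR, at 0.0206, where 3.44% of genes had one, with a log2 difference of 0.71 (0.12 to 1.31), an adjusted p of 1.00 and an unadjusted DESeq2 p of 0.0773. Pecam1, Slc2a1, Mfsd2a and Slco1a4 did not overlap between the 2 groups, 4 of 10 members, where 9.76% of genes did not. Pecam1 was 677, 651 and 658 in ATV:BACE1 and 754, 777 and 767 in nonTV:Malat1, a narrow gap with a fitted difference of 0.21 (-0.28 to 0.69). Malat1 ASO had 8 of 10 members above ATV:BACE1, with 0 called in edgeR, where 0% of genes were called, and 0 in DESeq2, which also called 0% of genes. Slc2a1 differed by 0.57 (0.085 to 1.05) with an unadjusted edgeR p of 0.0229 (4.11% of genes had one under 0.05), an unadjusted DESeq2 p of 0.0241 and an adjusted edgeR p of 0.995. Pecam1, Slc2a1, Mfsd2a and Slc7a5 did not overlap between these groups of 3 and 2 libraries, where 17.6% of genes did not. Astrocyte markers in endothelium summed to 649 to 1087 CPM in ATV:BACE1 and to 370 to 520 CPM in Malat1 ASO, and their part in these differences was not tested.

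OTV:Malat1 and nonTV:Malat1 were given at 1 dose with the ASO on both sides and differ in TfR binding. Endothelial Malat1 also differed between them, by -1.40 (edgeR adjusted p 6.04e-05), and TfR binding cannot be told apart from this here. 0 of 10 members passed in edgeR, where 1 gene did (0.0225%, Malat1), and 0 in DESeq2, which also called 0.0225% of genes. Mfsd2a had a log2 difference of -0.59 (-1.16 to -0.014), an unadjusted edgeR p of 0.0451 (2.81% of genes had one under 0.05) and an unadjusted DESeq2 p of 0.131. It was the 1 member whose libraries did not overlap, where 9.1% of genes did not. Cldn5 differed by -0.29 (-0.71 to 0.14), and the other 8 members by -0.18 (Ocln) to 0.13 (Slc7a5). Choroid plexus markers in endothelium, nearly all Ttr, summed to 1011 to 1088 CPM in OTV:Malat1 and to 1639 to 1963 CPM in nonTV:Malat1, and neuronal markers to 770 to 863 and 621 to 672 CPM. Their part in the Mfsd2a difference was not tested. Against Malat1 ASO, OTV:Malat1 had 0 of 10 members called in edgeR, where 0.0225% of genes were called, 0 at an unadjusted p under 0.05 (3.35% of genes) and 0 in DESeq2, which also called 0.0225% of genes. Their differences ran from -0.37 (Cldn5) to 0.28 (Slco1c1), and 0 of 10 did not overlap, where 17.7% of genes did not. With the replicate block 0 members were called in these comparisons, including Malat1 ASO against ATV:BACE1, where the block called 0.27% of genes. Its unadjusted p was under 0.05 for 2 members in OTV:Malat1 against nonTV:Malat1 (Cldn5 0.0484 and Mfsd2a 0.0356, 3.33% of genes), 1 in OTV:Malat1 against Malat1 ASO (Cldn5 0.0169, 4.16%), 1 in nonTV:Malat1 (Mfsd2a 0.0192, 4.38%) and 1 in Malat1 ASO (Slc2a1 0.0106, 5.30%) against ATV:BACE1, and 0 in OTV:Malat1 against ATV:BACE1 (5.62%).

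**Figure D5:**
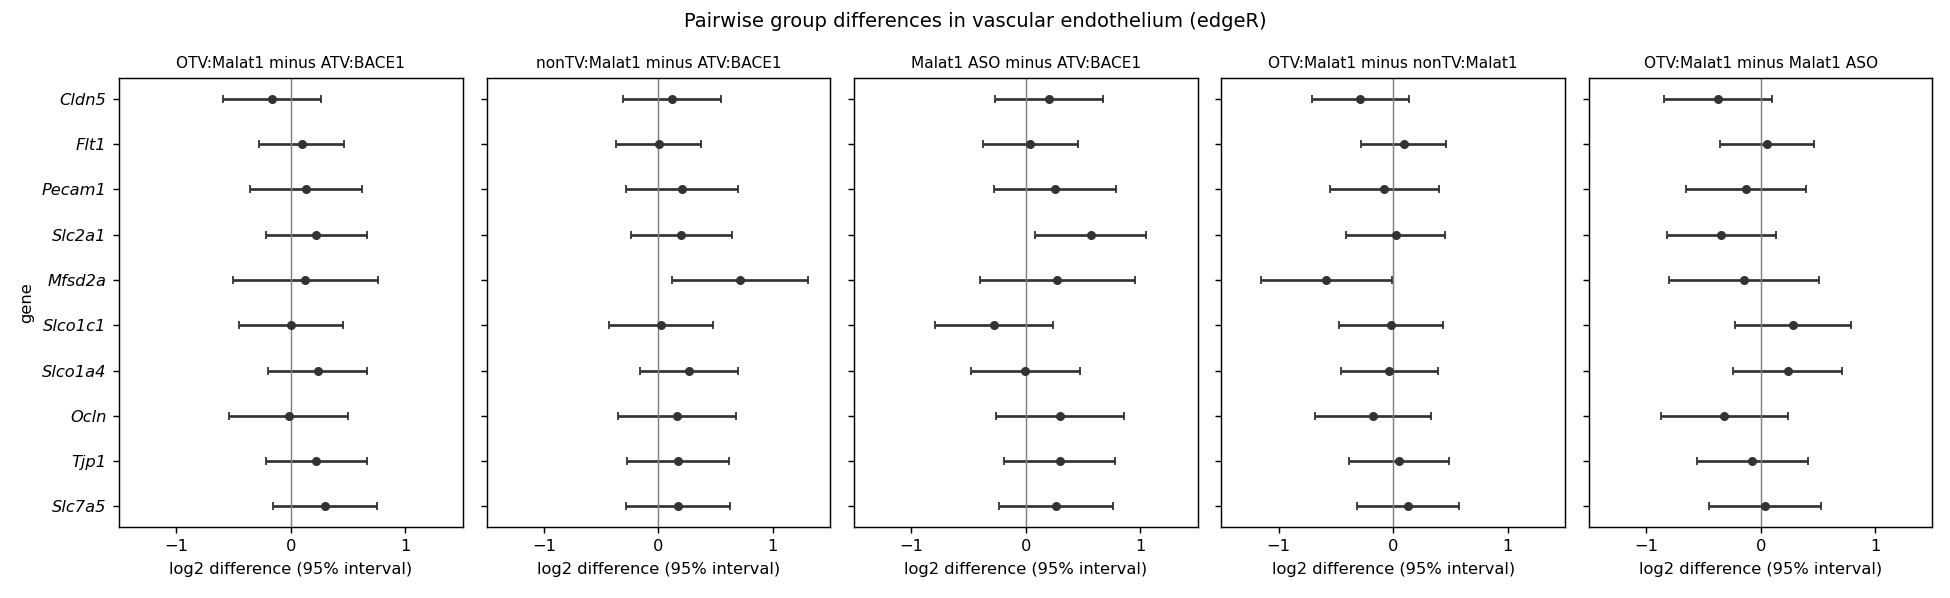
Log2 differences between single dosing groups for each barrier gene in vascular endothelium, with 95% intervals from edgeR, 1 panel per comparison. Of 50 intervals, 3 leave out 0: Mfsd2a at 0.71 and -0.59 in the comparisons with nonTV:Malat1, and Slc2a1 at 0.57 in Malat1 ASO against ATV:BACE1.

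The class named pericytes, which carries the same RNA at a higher depth (40 to 126 nuclei per library, median 1930.5 UMIs), was read in the same way over 6189 genes. In edgeR 0 of 10 members passed in each of the 6 comparisons, where 0% of genes did, and 0 had an unadjusted p under 0.05, where 3.13% to 4.20% of genes did. DESeq2 gave 0 and 0 as well, where it called 0% to 0.0162% of genes, and the replicate block called 0 members, where it called 0.0162% to 0.194%. Malat1 in this class differed by -0.81 (-1.12 to -0.49) in OTV:Malat1 against ATV:BACE1. Its adjusted p was 0.0897 in edgeR, 0.00757 in DESeq2 and 0.00376 with the block. The edgeR fit thus left the target uncalled, and its 0 calls do not show that the members were unchanged. Slco1c1 had the TfR-binding difference farthest from 0, at 0.26 (-0.026 to 0.54, unadjusted p 0.0731). Its TMM-normalised CPM were 1440, 2072 and 1570 under ATV:BACE1, 1517, 1995 and 1739 under OTV:Malat1, 1468, 1493 and 1516 under nonTV:Malat1, and 1540 and 1219 under Malat1 ASO. The replicate 4 libraries of ATV:BACE1 and OTV:Malat1 were the highest, and the sides overlapped. Cldn5 differed by -0.18 (-0.44 to 0.077) and Mfsd2a by -0.079 (-0.48 to 0.32). Within every replicate number, 0 of 10 members were lower (1.26% of genes) and 0 higher (1.05%) in all TfR-binding libraries. The members' median was -0.084 with 7 of 10 below 0, beside -0.0030 for all genes. Members whose libraries did not overlap numbered 0 of 10 in the TfR-binding comparison (0.259% of genes), 0 in OTV:Malat1 (8.6%) and 0 in nonTV:Malat1 (9%) against ATV:BACE1, and 1 each in Malat1 ASO against ATV:BACE1 (Slc2a1, 18%) and OTV:Malat1 against Malat1 ASO (Slc7a5, 17.9%). Between OTV:Malat1 and nonTV:Malat1 they numbered 3 (Cldn5, Flt1 and Slco1c1, 8.26% of genes), and the nearest Slco1c1 libraries there were 1517 and 1516.

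Whether the dosing differences themselves differed between the 2 classes was tested with limma on the per-library difference of log2 CPM (prior count 2) between endothelium and pericytes. 0 of 10 members passed in each of the 6 comparisons, where 0% of 4385 genes did, and 0 had an unadjusted p under 0.05, where 3.67% to 7.12% of genes did. The smallest unadjusted p was 0.128, for Slco1a4 in nonTV:Malat1 against ATV:BACE1, at 0.46 (-0.15 to 1.07). For Mfsd2a in the TfR-binding comparison the endothelial difference was more negative than that of pericytes by -0.30, with an interval of -0.81 to 0.21.

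In 7 other classes, over libraries with at least 20 nuclei of the class, 274 tests of members gave 0 calls in edgeR, and from 0% to 0.0294% of all genes were called in a comparison. DESeq2 and the replicate block also called 0 members. DESeq2 called 0% to 0.0294% of genes, and the block 0% to 0.353% (microglia, nonTV:Malat1 against ATV:BACE1), with 0.0153% or 0.0919% in 4 comparisons of leptomeningeal cells. Unadjusted p-values under 0.05 numbered 6 of 274 in edgeR (2.19%), 12 with the block and 5 in DESeq2. Over all genes such p-values made up 0.685% to 5.51% of a comparison in edgeR, 2.13% to 9.43% with the block and 0.333% to 2.58% in DESeq2. Slco1c1 in astrocytes differed by 0.042 (-0.31 to 0.39) between TfR-binding and other groups, and in glia by -0.22 (-0.56 to 0.11). Tjp1 differed by -0.053 (-0.39 to 0.29) in astrocytes and -0.020 (-0.25 to 0.21) in neurons. The smallest unadjusted p, 0.00366, was that of Slco1c1 in leptomeningeal cells, at -1.27 (-2.08 to -0.46) in OTV:Malat1 against nonTV:Malat1, with an adjusted p of 1.00. It rests on a class level of 60.4 CPM ± 27.4 (SD, n = 11). Slco1a4 in glia differed by -0.53 (-1.05 to -0.013) in OTV:Malat1 against ATV:BACE1, with an adjusted p of 0.897. Summed over all nuclei the members gave 0 calls in edgeR and DESeq2 in the 6 comparisons, where edgeR called 0% of genes and DESeq2 0% to 0.00934%. The replicate block also called 0 members, where it called 0.0187% of genes in Malat1 ASO against ATV:BACE1. Malat1, the target, differed by -0.79 over all nuclei in OTV:Malat1 against ATV:BACE1 (edgeR adjusted p 0.99998, DESeq2 3.87e-09). In astrocytes it differed by -1.56 (0.368 and 5.8e-23) and in neurons by -0.70 (0.99999 and 4.14e-07). EdgeR called it in oligodendrocytes (-2.44, 2.87e-06) and microglia (-0.93, 0.00188). With the target left uncalled in some of these fits, 0 calls in edgeR do not show unchanged members.

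Further barrier genes came from 5 lists of 52 genes in all, of which 41 were tested in endothelium. In the TfR-binding comparison 0 passed in edgeR in any list, with 0 in DESeq2, where both called 0% of all genes. An unadjusted edgeR p under 0.05 was found for 1 of 41, where 3.19% of all genes had one. This was Vcam1, which passed the count filter only through 2 OTV:Malat1 libraries where it was high. In the other 5 comparisons 0 passed, where edgeR called 0% to 0.045% of genes. Over all 6 comparisons 5 of 246 tests had an unadjusted edgeR p under 0.05, to be read beside the shares of all genes given above for each comparison. Of the junction genes 8 of 11 were tested, with a median log2 difference of -0.062. All 12 transporters were tested (-0.0022), as were 5 of 8 receptor and vesicle genes (-0.13), all 14 genes of Wnt signalling and barrier regulation (-0.11), and 2 of 7 activation genes, which lay apart at -0.25 (Edn1, endothelin-1) and 2.40 (Vcam1). The 3 genes with the smallest unadjusted p were Vcam1, Abcg2 and Bsg. Vcam1, an adhesion molecule of activated endothelium, had 13, 20 and 2 UMIs in OTV:Malat1 replicates 1, 4 and 5 and 0 to 4 in the other 8 libraries. Its difference of 2.40 had a wide interval (0.47 to 4.33, unadjusted p 0.0165, edgeR adjusted p 0.999), with an unadjusted DESeq2 p of 0.0548. High counts were thus present in 2 of 6 TfR-binding libraries, and in none of ATV:BACE1. Vcam1 passed the low-count filter only through these 2 libraries. Its difference and p-values are therefore drawn from a gene that its own high group selected, and are no test of it. Abcg2, an efflux pump, differed by -0.32 (-0.70 to 0.065), and Bsg (basigin, CD147) by -0.18 (-0.46 to 0.099).

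The share of nuclei named vascular endothelium was 0.935% ± 0.234 in the TfR-binding libraries (SD, n = 6) and 1.11% ± 0.229 in the others (SD, n = 5). The difference of -0.172 percentage points gave an exact two-sided permutation p of 0.264, where 0.00433 is the smallest value this test allows. The permutation exchanged libraries across replicate numbers and so ignored the batch. Single libraries ran from 0.584% (ATV:BACE1 replicate 4; 95% exact binomial interval 0.444% to 0.754%) to 1.39% (nonTV:Malat1 replicate 1; 1.16% to 1.64%), and the sides overlapped. These intervals cover counting error only. Replicate 4 had 0.584% in ATV:BACE1, 1.09% in OTV:Malat1 and 0.793% in nonTV:Malat1, and the corresponding values were 1.09%, 1.03% and 1.39% in replicate 1, and 1.13%, 0.694% and 1.26% in replicate 5.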

How the data were processed

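The authors deposited 1 matrix of raw UMI counts per gene and nucleus with no normalization, and a metadata table per nucleus. In 110304 of 110304 nuclei the matrix sum equalled the deposited total. The class prediction score is a deposited fraction from 0 to 1, and class names, doublet calls and batch numbers are the authors' own. Per the submitters' processing notes Cell Ranger 5.0.0, Seurat 4 and mm10 were used. The labels give posterior brain and a TfR knock-in, while the deposited metadata give cortex and C57BL/6J, and this was not resolved. Called doublets (10.4% of nuclei, 1.72% of endothelium) were kept.

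Counts were summed per library and class (at least 20 nuclei) and tested with edgeR 4.0.16 (glmQLFit, glmQLFTest, TMM, filterByExpr) in R 4.3.3, all 4 groups in 1 fit without a replicate block, with Benjamini-Hochberg adjustment over the genes of the fit. DESeq2 1.42.0 and limma 3.58.1 were used as stated. Scripts were tested on simulated data. Levels over classes are plain CPM, means of libraries. The members and lists were chosen with earlier results of these data known. The genes named were all 10 members in endothelium and pericytes, in other classes members of at least 100 CPM or past the threshold, of other lists any call or else the 3 with the smallest p, and the 3 genes most like each member over classes. Low values in other classes (Slco1c1 in leptomeningeal cells among them) were chosen after they were seen. Gene positions are from GENCODE M21.

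Replicate numbers coincide with deposited batches, so same-numbered libraries were taken as paired by batch. Centred within groups, endothelial log2 CPM of same-numbered libraries correlated at 0.0015 to 0.22 (median 0.10, 15 pairs), and of different numbers at -0.22 to 0.077 (30 pairs). Centring within such small groups makes deviations cancel. These ranges therefore partly mirror each other, and the pairs are not independent evidence of the pairing. The alternatives were DESeq2, a replicate block, no TMM, Malat1 left out, no filter, doublets, low scores or nuclei under 1000 UMIs left out, both vessel classes summed, another prior count, other thinning, and each library left out.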

Additional observations from a re-analysis of the deposited data

How the results depend on the processing

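The number of members called stayed at 0 under every alternative run: 20 for endothelium, 19 for pericytes, 17 for the other classes and 13 for the difference between endothelium and pericytes. With the replicate block it was 0 in each of the 4, so the pairing changed no call. Signs of small TfR-binding differences moved. In endothelium, Flt1 was -0.045 without the count filter and -0.038 to 0.086 with each library left out, and Slco1c1 -0.016 to 0.30 with each left out. Slco1a4 was 0.014 at scores of at least 0.8, 0.075 with both vessel classes summed and -0.19 to 0.20 with each library left out, and Slc7a5 was 0.035 at scores of at least 0.8 and -0.14 to 0.00096 with each left out. In pericytes, Mfsd2a was 0.046 without doublets and -0.22 to 0.16 with each library left out, and Ocln -0.16 to 0.016 and Slc7a5 -0.10 to 0.088 with each left out. The cause was not tested. The remaining members kept their sign in both classes, but not their size. Over 20 alternatives in endothelium Mfsd2a ran from -0.50 to -0.23, Slc2a1 from -0.37 to -0.16, Cldn5 from -0.36 to -0.12, Ocln from -0.36 to -0.097, Pecam1 from -0.25 to -0.071 and Tjp1 from -0.23 to -0.0080. Over 19 in pericytes Cldn5 ran from -0.24 to -0.10, Pecam1 from -0.24 to -0.078, Slc2a1 from -0.16 to -0.0023, Tjp1 from -0.20 to -0.0097, Flt1 from 0.039 to 0.15, Slco1a4 from 0.047 to 0.26 and Slco1c1 from 0.18 to 0.36. Mean Cldn5 was 2871 CPM at scores of at least 0.8, and the other 29 alternative levels lay within 1 SD. The difference in endothelial share ran from -0.250 to -0.102 points over 13 alternatives. All 20 shares of endothelial nuclei with a UMI were higher at 1000 UMIs or unthinned than at 500, by more than 1 SD. At 1000 UMIs the depth and the set of nuclei changed together, since 52.5% of endothelial nuclei were left out. Unthinned, all nuclei were kept. Few nuclei per library (58 to 134 endothelial) limit what is detectable, and in libraries of 9 to 46 Mfsd2a UMIs the count alone leaves wide error. Sex (replicate 1 against 4 and 5) and age (replicate 4 against 1 and 5) cannot each be told apart from batch.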
